A study of Mus musculus with 12 samples.

Results

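The genes described here are the Wnt ligands, the Frizzled receptors with their Lrp co-receptors, the secreted Sfrp, Dkk and Wif1 antagonists, and 5 intracellular genes of the β-catenin arm (*Axin1*, *Axin2*, *Ctnnb1*, *Lef1* and *Tcf7*). They were taken by a rule on gene names that uses no values, set with earlier results of these data known. The group held 44 of the 28867 genes on the array, measured by 62 probes. RNA of whole mouse gonads at E14.5 was hybridised to 12 single-colour arrays, 3 for each of 4 groups, to ask how loss of *Smad4*, the shared mediator of BMP and TGF-β signals, and of *Stra8*, the retinoic acid target that opens meiosis, changes the fetal ovary. Control testes were *Smad4* Flox/+, Stella-MerCreMer, *Stra8*+/-. Control ovary 1 had the same genotype, control ovary 2 was *Smad4* Flox/+, *Stra8*+/- and control ovary 3 was *Smad4* Flox/Flox, *Stra8*+/-, neither with a Cre in its label. *Smad4 (Stella)* ovaries were *Smad4* flox/flox, MerCreMer, *Stra8*+/-, and DKO ovaries were *Smad4* flox/flox, MerCreMer, *Stra8*-/-. Thus every animal lacked at least 1 copy of *Stra8*, the background was mixed, and tamoxifen had been given to the dams at E9.5 and E10.5. The Cre is driven by *Stella*, acts in germ cells and, per the study, varied in its activity, so the supporting and stromal cells of these ovaries should keep *Smad4*, whereas *Stra8* is missing from the whole animal in the DKO.

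Wnt ligands are secreted lipid-modified proteins. They bind a Frizzled receptor and, for the β-catenin arm, an Lrp co-receptor, which stops the Axin complex from destroying β-catenin and lets it act with TCF and LEF factors on target genes such as *Axin2*, *Lef1* and *Sp5*. Sfrp proteins and Wif1 bind the ligands, Dkk proteins block the Lrp co-receptors, and other ligands such as Wnt5a mostly signal without β-catenin. In the fetal ovary, R-spondin 1 and β-catenin maintain the supporting cells on the female path, and the testis keeps this arm low.

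Levels are log2 processed intensity minus the 75th percentile of the same array, so that 0 is the level of a bright probe, and levels of different genes cannot be set against each other. A gene was called when the adjusted p from limma over all 18665 genes tested was under 0.05 and the change was at least 1.5-fold. Probes well above background made up 58.8% to 70.5% of each array, lowest in control ovary 1. Summed linear levels of 7 Sertoli markers were 114 to 124 in control testes and 1.83 to 3.12 in the 9 ovaries, and those of 5 pregranulosa markers were 0.180 to 0.211 and 3.81 to 7.12, which fits the labelled sexes. Skeletal muscle markers reached 13.9 in control ovary 3 and at most 0.873 elsewhere. *Stra8* lay at 6.16 to 6.71 in control ovaries, at 6.28 to 6.41 and 5.28 to 5.61 in the *Smad4 (Stella)* and DKO ovaries and at -2.98 to -2.32 in testes, and *Smad4* at 1.96 to 2.42 over all 12 arrays. Whether the probes of either gene lie in the deleted part is not given in the sources used here, so these levels do not check the genotypes. In whole gonads, fewer cells of a type and less RNA per cell cannot be told apart.

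Between the sexes, the β-catenin targets *Axin2* and *Lef1*, 3 ligands and the receptors *Fzd10* and *Lrp6* were lower in the testis. Higher there were 3 antagonists, 2 Frizzled receptors and 2 ligands. Of 36 members tested, 7 were higher in control testes than in control ovaries (*Wnt3*, *Wnt5a*, *Fzd2*, *Fzd9*, *Dkk1*, *Dkk3* and *Sfrp4*) and 7 were lower (*Wnt2b*, *Wnt9a*, *Wnt10a*, *Fzd10*, *Lrp6*, *Axin2* and *Lef1*). These 14 calls are 38.9% of the members tested. Over all genes 34.0% were called, 17.2% higher and 16.7% lower in testes. The median log2 fold change of the members was 0.13, against 0.02 for all genes. Summed levels of 5 surface epithelium markers were 13.0 to 14.2 in testes and 31.4 to 38.3 in control ovaries. Those of 4 fetal Leydig markers were 63.3 to 71.7 in testes and 1.93 to 2.71 in control ovaries. Macrophage, erythroid, mesonephric, adrenal and neural lists also did not overlap between the sexes. The part of any of these cells in the members' values was not tested.

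In DKO ovaries, 7 members rose against control ovaries (*Wnt3*, *Wnt10a*, *Fzd6*, *Fzd9*, *Fzd10*, *Dkk3* and *Tcf7*) and 2 fell (*Lrp6* and *Dkk1*). The 9 calls are 25.0% of the members, and 14.7% of all genes were called in this comparison, 6.71% higher and 7.94% lower. The members' median log2 fold change was -0.0045, against 0.0035 for all genes, with 18 of the 36 members higher by their mean. Without sign the median was 0.307 for the members and 0.265 for all genes. The remaining 27 members stayed uncalled. Only 4 of the 9, *Wnt3*, *Fzd6*, *Fzd9* and *Lrp6*, were called whichever of the 12 arrays was left out. Summed levels of 5 markers of germ cells of both sexes were 102 to 132 in DKO ovaries and 68.6 to 94.6 in control ovaries, with 2 of the 5 genes called. Those of 5 erythroid markers reached at most 16.6 in DKO ovaries and were 18.7 to 24.6 in control ovaries, with 1 of the 5 called, and no other marker list was without overlap here. The part of either list in the members' values was not tested.

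In *Smad4 (Stella)* ovaries, no member was called against control ovaries, where 0.279% of all genes were called by limma, 0.134% higher and 0.145% lower. At an unadjusted p under 0.05 there were 6 members, against 19.7% of all genes, and the unmoderated test of the methods also gave 6 at that threshold and 0 after adjustment. DKO against *Smad4 (Stella)* ovaries gave 5 calls among the members, or 13.9%, with 8.42% of all genes called, 4.4% higher and 4.02% lower. *Axin2*, *Fzd9*, *Wnt3* and *Wnt16* were higher in the DKO and *Lrp6* was lower. All *Smad4 (Stella)* arrays were on 1 slide with 1 of 3 DKO arrays, and with the slide as a block 1 of these 5, *Axin2*, was called. No control ovary was on that slide, so *Smad4 (Stella)* and control ovaries could not be compared within a slide. This holds for all values of these 2 groups set against each other below. The germ cell markers, at 65.5 to 79.3 in *Smad4 (Stella)* ovaries, lay below those of the DKO without overlap, and the 6 endothelial markers lay just above those of the DKO, at 13.8 to 14.2 with a DKO maximum that rounds to the same 13.8. Their part was not tested. DKO ovaries against control testes gave 17 calls, or 47.2%, with 25.8% of all genes called, 12.7% higher and 13.1% lower. The comparisons with control ovaries share those 3 arrays, so their values are set side by side below and not counted together.

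**Figure D1:**
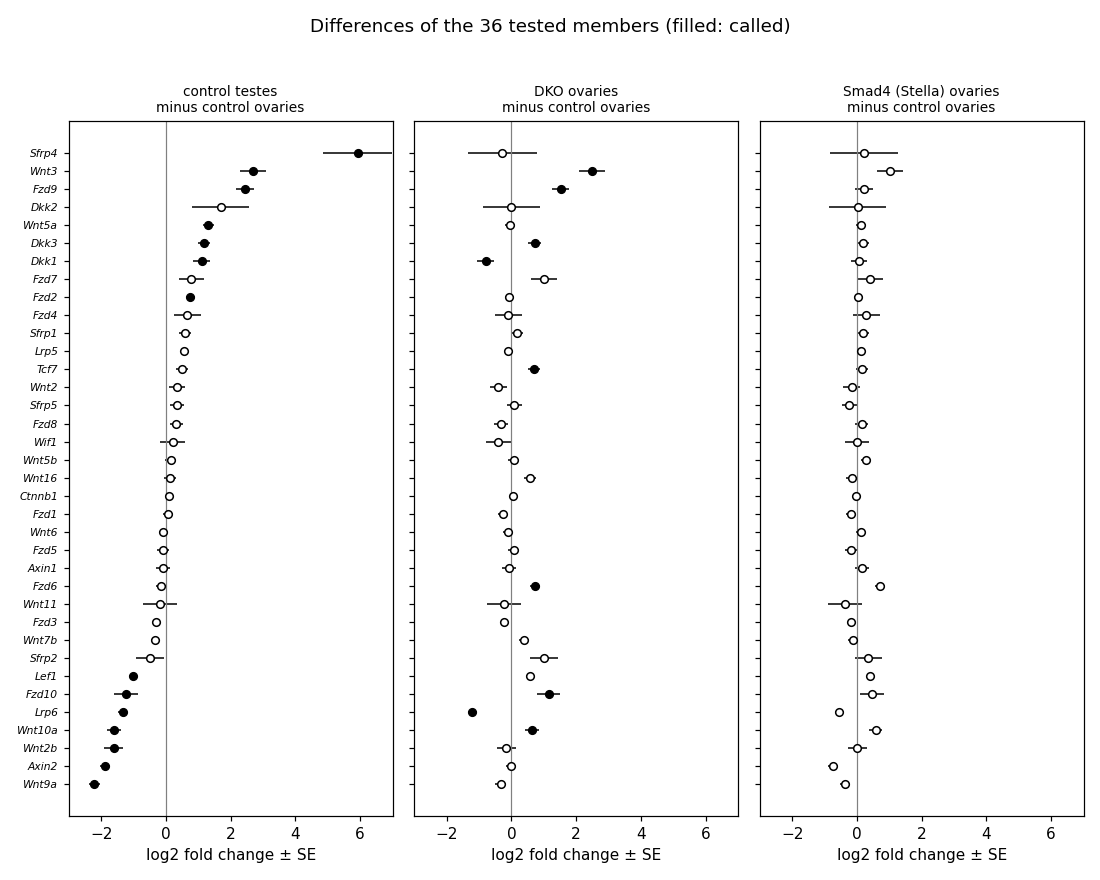
Log2 fold change ± SE (limma, n = 3 arrays per group) of the 36 tested members in control testes, DKO ovaries and *Smad4 (Stella)* ovaries, each against the same 3 control ovaries, ordered by the testis value, with called members filled. 14 members are filled in the testis panel, 9 in the DKO panel and 0 in the *Smad4 (Stella)* panel.

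The 250 bases before the transcription start (RefSeq, GRCm38.p6) are printed for 3 members that differ in their pattern. *Axin2* is the common readout of β-catenin, *Wnt3* had the largest rise of the 9 members called in the DKO, and *Dkk1* fell there and holds matches to 2 of the motifs searched. Capitals mark a match, and the *Axin2* and *Wnt3* stretches have none.
Axin2, chr11:108920099-108920348, plus strand: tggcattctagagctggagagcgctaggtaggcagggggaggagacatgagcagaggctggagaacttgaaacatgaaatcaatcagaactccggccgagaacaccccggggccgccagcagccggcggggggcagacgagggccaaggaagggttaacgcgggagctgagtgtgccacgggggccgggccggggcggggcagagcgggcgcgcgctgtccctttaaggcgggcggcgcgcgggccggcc
Wnt3, chr11:103773925-103774174, plus strand: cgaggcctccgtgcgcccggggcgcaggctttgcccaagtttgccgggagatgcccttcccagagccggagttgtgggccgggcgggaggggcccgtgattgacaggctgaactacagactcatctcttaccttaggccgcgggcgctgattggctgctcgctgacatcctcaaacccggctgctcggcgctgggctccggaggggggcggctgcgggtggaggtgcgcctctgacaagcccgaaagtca
Dkk1, chr19:30549497-30549746, minus strand: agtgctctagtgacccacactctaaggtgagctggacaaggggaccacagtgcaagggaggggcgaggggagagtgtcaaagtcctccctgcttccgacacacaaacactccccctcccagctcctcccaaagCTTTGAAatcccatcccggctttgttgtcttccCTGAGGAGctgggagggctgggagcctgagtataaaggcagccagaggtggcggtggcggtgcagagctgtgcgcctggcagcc
The motifs were searched on both strands of the windows from 250 bases before to 50 after each start. For the members, 37 promoters of 29 genes were searched. CTTTGAT or CTTTGAA, bound by TCF and LEF factors, occurred in 8.65% of 32851 promoters and in 3 of these 37, of *Dkk1*, *Wnt5b* and *Wnt11*. CNCCTCAG, a motif known for STRA8, occurred in 7.94% of all promoters and in 3 of the 37, of *Dkk1*, *Fzd7* and *Lef1*, overlapping no TCF/LEF match. The SMAD palindrome GTCTAGAC occurred in 0.213% of all promoters and in 0 of the 37. A match here is a run of letters and not a site of binding.

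*Wnt3*, a ligand of the β-catenin arm (probes at chr11:103677409-103677468 and chr11:103679038-103679097, mm9), had the largest fold change among the ligands in the DKO. Its level was -3.86, -5.13 and -5.18 in control ovaries, with *Smad4 (Stella)* ovaries at -3.09, -3.96 and -4.10, DKO ovaries at -2.18, -1.94 and -2.58 and testes at -2.43, -2.17 and -1.49. All 3 DKO arrays lay above every control and *Smad4 (Stella)* ovary and overlapped the testes, while the *Smad4 (Stella)* and control ovaries overlapped. The log2 fold change was 2.49 ± 0.40 (SE) in DKO ovaries, a 5.63-fold rise with an adjusted p of 0.0014, and 2.69 ± 0.40 in control testes, 6.46-fold with an adjusted p of 0.00030. The probe from 103677409 was well above background on 2 of 3 control ovaries, so the size of these folds is uncertain. Fitted singly, the 2 probes gave 7.35-fold and 4.30-fold in the DKO and 9.24-fold and 4.51-fold in testes, all called. *Smad4 (Stella)* ovaries stood at 1.01 ± 0.40, which was not called with an adjusted p of 0.21. The DKO was 2.80-fold above *Smad4 (Stella)* ovaries (adjusted p = 0.037), a call that was lost when any of 5 arrays was left out, the highest adjusted p being 0.139. With the slide as a block its adjusted p was 0.187, with a log2 fold change of 1.13. DKO ovaries and control testes differed by -0.20 in log2 terms, 95% interval -1.08 to 0.69.

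*Wnt9a* and *Wnt2b* were lower in testes and were not called in either mutant against control ovaries. *Wnt9a*, a ligand known from joint formation (chr11:59146696-59146755, mm9), lay at 0.50, 0.06 and 0.27 in control ovaries, with *Smad4 (Stella)* ovaries at -0.35, 0.07 and 0.00, DKO ovaries at 0.22, -0.18 and -0.19 and testes at -1.75, -2.00 and -2.08. It was 4.65-fold lower in testes (log2 fold change -2.22 ± 0.17, adjusted p = 3.0e-06), and the testes lay below all 9 ovaries. *Wnt2b*, a ligand of the β-catenin arm (chr3:104748831-104748890, mm9), ran from -3.63 to -2.68 in control ovaries, and *Smad4 (Stella)* ovaries ran from -3.39 to -2.47, DKO ovaries from -3.31 to -2.96 and testes from -4.91 to -4.36. Its testis level was 3.06-fold lower (adjusted p = 0.0011), and the DKO value against control ovaries was -0.17 in log2 terms with an interval of -0.82 to 0.48.

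*Wnt10a* and *Wnt5a* gave contrasting orders. *Wnt10a*, a β-catenin ligand of epithelia and teeth (chr1:74850633-74850692, mm9), was -1.21, -1.33 and -1.27 in control ovaries, with *Smad4 (Stella)* ovaries at -0.90, -0.62 and -0.56, DKO ovaries at -1.07, -0.60 and -0.21 and testes at -2.83, -2.64 and -3.15. Every mutant ovary was above every control ovary and every testis below. It rose 1.56-fold in DKO ovaries (log2 fold change 0.64 ± 0.21, adjusted p = 0.049) and was 3.04-fold lower in testes (adjusted p = 0.00011), while *Smad4 (Stella)* ovaries stood at 0.58 ± 0.21 with an adjusted p of 0.17. The DKO call was kept in 2 of the 12 fits that each left out 1 array, and its adjusted p with the slide as a block was 0.165. *Wnt5a*, the ligand that orients cells and tissues mostly without β-catenin (chr14:29340427-29340486 and a probe spanning an intron from 29331746 to 29335708, mm9), was -0.92, -0.51 and -0.50 in control ovaries, with *Smad4 (Stella)* ovaries at -0.42, -0.54 and -0.62, DKO ovaries at -0.76, -0.81 and -0.50 and testes at 0.94, 0.57 and 0.51. It was 2.49-fold higher in testes (adjusted p = 6.7e-05), with all 9 ovaries below all 3 testes.

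*Wnt16* was low on every array, at -5.06, -5.31 and -5.66 in control ovaries, with *Smad4 (Stella)* ovaries at -5.39, -5.76 and -5.37, DKO ovaries at -4.78, -4.60 and -4.94 and testes at -5.06, -5.43 and -5.18. It was well above background on 1 of 3 control ovaries, 2 of 3 *Smad4 (Stella)* ovaries and all 6 DKO and testis arrays, so its ovary levels sit near the detection limit. The DKO was 1.67-fold above *Smad4 (Stella)* ovaries (adjusted p = 0.024, and 0.198 with the slide as a block), and against control ovaries the log2 fold change of 0.57 ± 0.18 passed the adjusted p at 0.043 but not the 1.5-fold limit. *Wnt7b* and *Wnt2*, both ligands of the β-catenin arm known from the lung, were called between DKO ovaries and testes only. *Wnt7b* was 1.63-fold higher in the DKO (adjusted p = 0.0042) and *Wnt2* was 1.68-fold lower (adjusted p = 0.038). The *Wnt2* call was kept in 7 of 12 fits that each left out 1 array, with log2 fold changes from -0.90 to -0.48 and an adjusted p of up to 0.128. Testes and DKO ovaries shared no slide, and with the slide as a block the adjusted p was 0.169 for *Wnt7b* and 0.188 for *Wnt2*. *Wnt5b*, *Wnt6* and *Wnt11* were called in none of the 5 comparisons, with *Wnt6* between 3.94 and 4.50 on all 12 arrays.

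**Figure D2:**
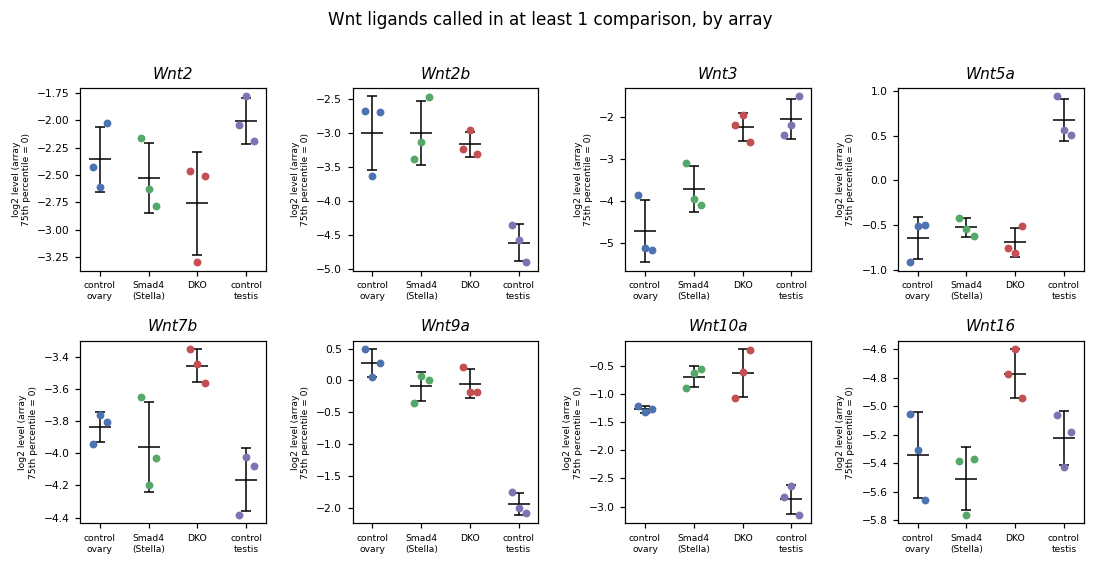
Level (log2, 75th percentile of the array at 0) of the 8 ligands called in at least 1 comparison, 1 point per array, with the mean as a dash and the SD as bars (n = 3). *Wnt3* shows DKO ovaries at -2.58 to -1.94 beside testes at -2.43 to -1.49, *Wnt9a* and *Wnt2b* show the testes alone apart, and *Wnt10a* shows both mutants above and the testes below the control ovaries.

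Among the Frizzled receptors, *Fzd6*, *Fzd9* and *Fzd10* were called in DKO against control ovaries, 3 of 10 and all higher, beside 14.7% of all genes called and 6.71% called higher. The *Fzd10* call was the least stable, as given below. *Fzd9* (chr5:135724815-135724874, mm9), a Frizzled known from brain and bone, was -2.75, -2.73 and -1.70 in control ovaries, with *Smad4 (Stella)* ovaries at -1.86, -2.20 and -2.45, DKO ovaries at -0.66, -0.79 and -1.18 and testes at 0.10, 0.21 and -0.15. The 3 DKO arrays lay between the other ovaries and the testes without overlap. It was 2.86-fold higher in DKO than in control ovaries (log2 fold change 1.52 ± 0.28, adjusted p = 0.0030), 2.45-fold higher than in *Smad4 (Stella)* ovaries (adjusted p = 0.014) and 1.91-fold lower than in testes (adjusted p = 0.023, kept in 9 of 12 fits that each left out 1 array, and 0.088 with the slide as a block). Testes exceeded control ovaries 5.46-fold (adjusted p = 4.7e-05). With the slide as a block the comparison with *Smad4 (Stella)* ovaries had an adjusted p of 0.178.

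*Fzd6*, a receptor of planar cell polarity (chr15:38869107-38869166, mm9), rose in the DKO and was not called between the sexes. It lay at -2.25, -1.98 and -1.66 in control ovaries, with *Smad4 (Stella)* ovaries at -1.09, -1.33 and -1.33, DKO ovaries at -1.34, -1.05 and -1.28 and testes at -2.13, -2.00 and -2.25. No mutant ovary overlapped a control ovary or a testis. The rise in the DKO was 1.67-fold (log2 fold change 0.74 ± 0.16, adjusted p = 0.0067), and *Smad4 (Stella)* ovaries stood at 0.71 ± 0.16 with an adjusted p of 0.077. The DKO differed from *Smad4 (Stella)* ovaries by 0.03 in log2 terms, interval -0.32 to 0.37.

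*Fzd10*, a β-catenin receptor, gave values that depended on the probe. Averaged over its 2 probes it was -0.23, -0.76 and -0.96 in control ovaries, with *Smad4 (Stella)* ovaries at 0.12, -0.15 and -0.52, DKO ovaries at -0.07, 0.72 and 0.85 and testes at -1.05, -2.34 and -2.24. That made it 2.22-fold higher in DKO ovaries (adjusted p = 0.047) and 2.35-fold lower in testes (adjusted p = 0.018). The probe at chr5:129108855-129108914 (mm9) alone was 5.29-fold lower in testes (adjusted p = 0.0092), while that at chr5:129109798-129109857 gave a log2 fold change of -0.06 there (adjusted p = 0.86). In the DKO both probes were higher, at 1.02 with an adjusted p of 0.29 and at 1.28 with an adjusted p of 0.0032. The averaged DKO call was kept in 4 of the 12 fits that each left out 1 array and was lost with the slide as a block (adjusted p = 0.097), and the testis call in 9 of 12.

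*Fzd2*, a receptor used by Wnt5a among others, was called in both comparisons with testes, at -0.36 to 0.04 in control ovaries, with *Smad4 (Stella)* ovaries at -0.09 to -0.02, DKO ovaries at -0.31 to 0.06 and testes at 0.58 to 0.74, 1.69-fold higher with an adjusted p of 0.00099. *Fzd8*, averaged over 2 probes, was called only between DKO ovaries and testes, 1.57-fold lower (adjusted p = 0.034). That call was kept in 7 of 12 fits that each left out 1 array, and normexp background correction turned its log2 fold change to 0.11. Fitted singly, 1 of its probes was called in DKO against control ovaries, 1.60-fold lower (adjusted p = 0.0079). The other gave 0.03 in log2 terms (adjusted p = 0.97) and was well above background on 2 of 3 control ovaries. *Fzd3* stayed under the 1.5-fold limit everywhere, and its 3 probes moved in opposite directions between the sexes, from -0.78 to 0.37 in log2 terms. *Fzd1*, *Fzd4*, *Fzd5* and *Fzd7* were called in none of the 5 comparisons.

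Of the Lrp co-receptors, *Lrp6* fell in DKO ovaries and *Lrp5* did not pass the test there. *Lrp6* was -0.50, -0.43 and -0.38 in control ovaries, with *Smad4 (Stella)* ovaries at -0.95, -0.77 and -1.21, DKO ovaries at -1.66, -1.45 and -1.80 and testes at -1.54, -1.78 and -2.00. The 3 kinds of ovary did not overlap, and DKO ovaries overlapped the testes. It was 2.30-fold lower in the DKO than in control ovaries (log2 fold change -1.20 ± 0.15, adjusted p = 0.00032), 1.59-fold lower than in *Smad4 (Stella)* ovaries (adjusted p = 0.018, and 0.066 with the slide as a block) and 2.53-fold lower in testes than in control ovaries (adjusted p = 4.3e-05). *Smad4 (Stella)* ovaries stood at -0.54 ± 0.15, with an adjusted p of 0.11. The 2 probes differed in size. That at chr6:134491492-134491551 (mm9) was 4.85-fold lower in testes and 2.78-fold lower in the DKO (adjusted p = 1.5e-06 and 0.00012), and that at chr6:134400356-134400415 gave log2 fold changes of -0.40 and -0.93 (adjusted p = 0.34 and 0.064). Between DKO ovaries and testes the first was 0.80 in log2 terms, 1.74-fold higher in the DKO and itself called (adjusted p = 0.0025), and the second was -0.53 (adjusted p = 0.22), so the averaged difference of 0.13 covers opposite signs. *Lrp5* was 1.59-fold lower in DKO ovaries than in testes (adjusted p = 0.00098), and in testes against control ovaries its log2 fold change was 0.57 ± 0.11 (adjusted p = 0.0016), under the 1.5-fold limit.

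Of the 8 secreted antagonists tested, *Sfrp4*, *Dkk1* and *Dkk3* were called higher in the testis, or 37.5% beside 34.0% of all genes, and in the DKO *Dkk3* rose and *Dkk1* fell, or 25.0% beside 14.7%. *Sfrp4*, which binds Wnt ligands (chr13:19724488-19724547, mm9), was -7.16, -6.26 and -1.90 in control ovaries, with *Smad4 (Stella)* ovaries at -4.19, -5.23 and -5.24, DKO ovaries at -4.97, -5.05 and -6.15 and testes at 0.87, 0.84 and 0.73. The testes lay above all 9 ovaries, and control ovary 3, the array with the high muscle markers, stood far above the other control ovaries. The log2 fold change was 5.92 ± 1.06 (adjusted p = 0.0010). Control ovary 3 was the only control ovary well above background for this probe, so the ovary mean includes levels under the detection limit. Without it the testes were at least 81.1-fold higher, taking for each other control ovary the lowest level well above background on its array, and with it the same rule gave at least 35.1-fold.

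*Dkk1*, the Lrp blocker, was -2.27, -2.55 and -2.29 in control ovaries, with *Smad4 (Stella)* ovaries at -2.09, -2.55 and -2.27, DKO ovaries at -2.93, -3.65 and -2.92 and testes at -1.11, -0.88 and -1.79. The DKO arrays were the lowest and the testes the highest of the 12. It was 1.74-fold lower in DKO than in control ovaries (log2 fold change -0.80 ± 0.26, adjusted p = 0.049), 2.15-fold higher in testes (adjusted p = 0.0050, and 0.067 with the slide as a block) and 3.75-fold lower in the DKO than in testes (adjusted p = 0.00026). The DKO call against control ovaries was kept in 3 of 12 fits that each left out 1 array, and its adjusted p was 0.101 with a slide block and 0.062 with a replicate block. Its probes, at chr19:30620529-30620588 and chr19:30621424-30621483 (mm9), gave -0.83 and -0.77 in log2 terms in the DKO.

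*Dkk3*, a divergent Dkk protein that does not bind Lrp6 like Dkk1 does (chr7:119260828-119260887, mm9), was -2.83, -2.24 and -2.04 in control ovaries, with *Smad4 (Stella)* ovaries at -2.13, -2.29 and -2.14, DKO ovaries at -1.88, -1.50 and -1.59 and testes at -0.96, -1.25 and -1.38. The DKO ovaries lay between the other ovaries and the testes without overlap. It rose 1.64-fold in the DKO (adjusted p = 0.024), a call kept in 9 of 12 fits that each left out 1 array, and was 2.26-fold higher in testes (adjusted p = 0.00066). With the slide as a block the DKO value was 0.46 in log2 terms with an adjusted p of 0.106. *Sfrp2* was called between DKO ovaries and testes only, 2.81-fold higher in the DKO (adjusted p = 0.019, kept in 9 of 12 fits that each left out 1 array, and 0.557 with the slide as a block), with control ovaries spread from 0.11 to 1.64. *Sfrp1* in testes had an adjusted p of 0.026 with a log2 fold change of 0.58, just under the 1.5-fold limit. *Dkk2*, *Sfrp5* and *Wif1* were called in none of the 5 comparisons.

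**Figure D3:**
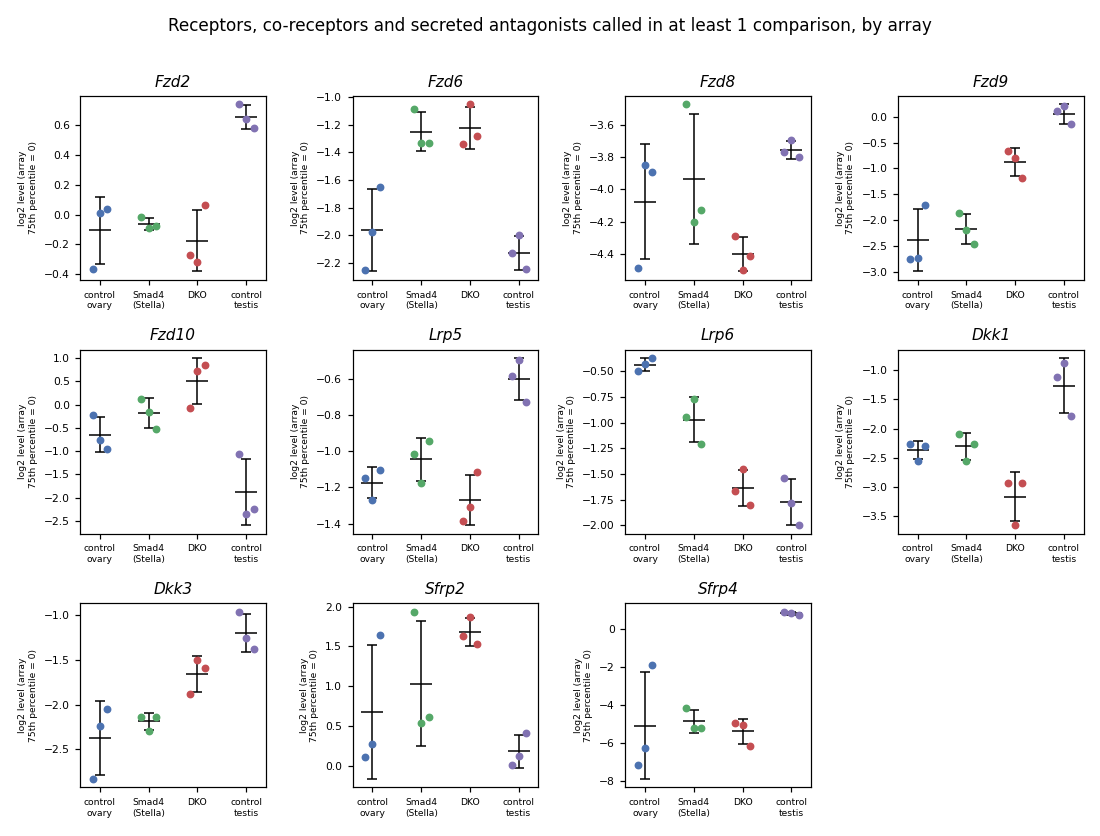
Level (log2, 75th percentile of the array at 0) of the 11 receptors, co-receptors and antagonists called in at least 1 comparison, 1 point per array, mean as a dash and SD as bars (n = 3). *Lrp6* steps down from control ovaries at -0.50 to -0.38 to DKO ovaries at -1.80 to -1.45, *Fzd9* and *Dkk3* place DKO ovaries between the other ovaries and the testes, and all mutant ovaries lie above both controls for *Fzd6*, at -1.34 to -1.05.

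**Figure D4:**
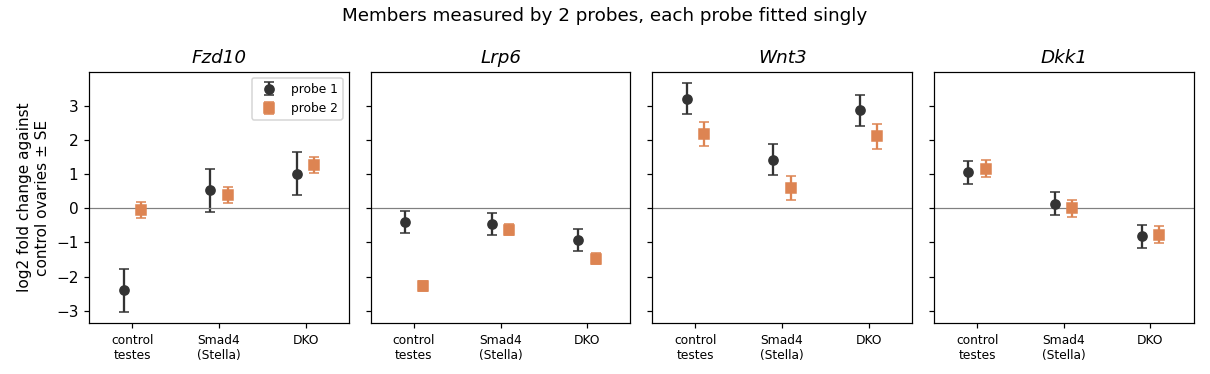
Log2 fold change ± SE (limma, n = 3 arrays per group) against control ovaries for each of the 2 probes of *Fzd10*, *Lrp6*, *Wnt3* and *Dkk1*, numbered by position on the chromosome. The probes of *Wnt3* and *Dkk1* lie on the same side of 0 in testes and DKO ovaries, while those of *Fzd10* stand at -2.40 and -0.06 and those of *Lrp6* at -0.40 and -2.28 in testes.

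In the intracellular arm, *Axin2* and *Lef1*, both targets of β-catenin, were lower in the testis, and *Tcf7* rose in the DKO. *Axin2*, a scaffold that feeds back on the signal (chr11:108811980-108812039, mm9), was 0.30, 0.87 and 0.88 in control ovaries, with *Smad4 (Stella)* ovaries at -0.00073, -0.07 and -0.11, DKO ovaries at 0.72, 0.73 and 0.57 and testes at -1.03, -1.29 and -1.26. The *Smad4 (Stella)* ovaries lay below all other ovaries and above the testes, and DKO ovaries lay within the spread of the control ovaries. *Smad4 (Stella)* and control ovaries shared no slide. Testes were 3.67-fold lower than control ovaries (log2 fold change -1.88 ± 0.15, adjusted p = 5.1e-06). *Smad4 (Stella)* ovaries stood at -0.74 ± 0.15 against control ovaries, not called with an adjusted p of 0.075, and without control ovary 1 this became -0.94 with an adjusted p of 0.038. The DKO was 1.66-fold above *Smad4 (Stella)* ovaries (adjusted p = 0.013), and with the slide as a block, which rests on the slide that held both groups, the log2 fold change was 0.63 with an adjusted p of 0.033. Against control ovaries the DKO differed by -0.0098 in log2 terms, interval -0.35 to 0.33.

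*Lef1*, the DNA-binding partner of β-catenin (chr3:130927036-130927095 and a probe spanning an intron from 130907851 to 130926012, mm9), was 0.97, 1.17 and 1.16 in control ovaries, with *Smad4 (Stella)* ovaries at 1.54, 1.54 and 1.45, DKO ovaries at 1.44, 1.77 and 1.78 and testes at 0.05, 0.00 and 0.15. Both kinds of mutant ovary lay above all control ovaries, and the testes below. It was 2.05-fold lower in testes (adjusted p = 3.7e-05). The DKO value of 0.56 ± 0.11 in log2 terms had an adjusted p of 0.0051 and fell short of the 1.5-fold limit, and *Smad4 (Stella)* ovaries stood at 0.41 ± 0.11 with an adjusted p of 0.11. Fitted singly, the probe from 130927036 was called in the DKO, 1.57-fold higher (adjusted p = 0.0024). The probe spanning an intron was 1.39-fold higher there (adjusted p = 0.12).

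*Tcf7*, the related TCF factor, was -1.18, -1.39 and -1.31 in control ovaries, with *Smad4 (Stella)* ovaries at -0.95, -1.22 and -1.25, DKO ovaries at -0.44, -0.32 and -1.04 and testes at -1.02, -0.79 and -0.63. DKO ovary 3 was close to the *Smad4 (Stella)* ovaries, and the other DKO ovaries exceeded all arrays. The rise was 1.62-fold (log2 fold change 0.70 ± 0.19, adjusted p = 0.021), kept in 8 of 12 fits that each left out 1 array. *Ctnnb1*, which encodes β-catenin, stayed between 3.59 and 3.84 on all 12 arrays, and its DKO value was 0.04 ± 0.09 (adjusted p = 0.79). *Axin1* was called in none of the 5 comparisons.

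**Figure D5:**
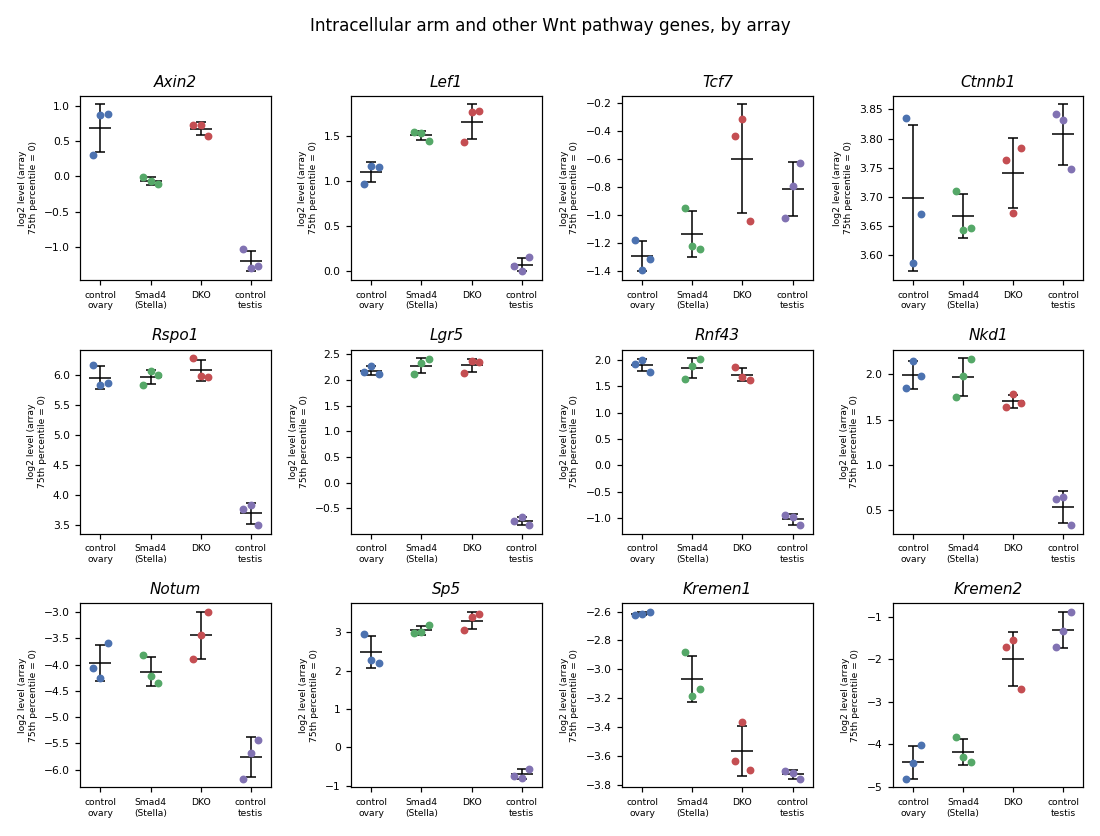
Level (log2, 75th percentile of the array at 0) of 4 intracellular members and 8 other Wnt pathway genes, 1 point per array, mean as a dash and SD as bars (n = 3). *Lgr5*, *Rnf43*, *Rspo1* and *Sp5* are each higher in all 9 ovaries than in testes. *Kremen2* is higher in DKO ovaries and testes than in the other ovaries. *Axin2* is lower in *Smad4 (Stella)* ovaries, at -0.11 to -0.00073, than in DKO ovaries at 0.57 to 0.73.

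The other genes of the pathway were taken from a list of 53, also set with earlier results known, of which 50 were tested. Between the sexes 11 were higher and 10 lower in testes, or 42.0% beside 34.0% of all genes. *Rspo1*, the secreted enhancer needed for the ovary, was 6.17, 5.83 and 5.87 in control ovaries and 3.76, 3.83 and 3.50 in testes, 4.79-fold lower (adjusted p = 7.7e-07). Its receptor *Lgr5* was 7.57-fold lower in testes, and the feedback genes *Rnf43*, *Nkd1* and *Sp5* were lower by 7.52-fold, 2.76-fold and 9.08-fold, all called. *Notum*, also a feedback gene and also called, was well above background on 1 of 3 testes and was at least 3.16-fold lower there by the rule used for *Sfrp4*. *Rspo2*, *Lgr4*, *Kremen1* and *Pygo1* were also called lower. *Znrf3* and *Nkd2* were not called, with means of -0.61 and -1.43 in control ovaries and -1.09 and -1.42 in testes. *Sostdc1*, an Lrp-binding antagonist, and *Frzb*, an Sfrp relative, were higher in testes, with log2 fold changes of 6.79 ± 0.67 and 2.30 ± 0.27. Also called higher there were *Rspo4*, *Dvl2*, *Kremen2*, *Cer1*, *Prickle1*, *Prickle2*, *Pygo2*, *Dact2* and *Gpc3*. Summed levels of 8 mesonephric markers were 0.407 to 0.477 in testes and 5.22 to 7.78 in control ovaries, and their part in these differences was not tested.

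Among these genes, 5 of 50 were called in DKO against control ovaries, beside 14.7% of all genes. *Kremen2*, which with Dkk proteins removes Lrp co-receptors from the surface, was -4.81, -4.44 and -4.03 in control ovaries, with *Smad4 (Stella)* ovaries at -3.82, -4.30 and -4.41, DKO ovaries at -1.71, -1.54 and -2.71 and testes at -1.71, -1.33 and -0.88. DKO ovaries lay above all other ovaries and overlapped the testes, a 5.43-fold rise over control ovaries (adjusted p = 0.00055) and 4.57-fold over *Smad4 (Stella)* ovaries (adjusted p = 0.0025). Its relative *Kremen1* fell 1.94-fold in the DKO (adjusted p = 0.00023), at -3.70 to -3.37 against -2.63 to -2.60, and testes stood at -3.76 to -3.70. *Dvl2*, the adaptor below Frizzled, rose 1.82-fold (adjusted p = 0.00072), *Dact2*, a Dvl-binding protein, 1.70-fold (adjusted p = 0.036) and *Sp5*, a β-catenin target, 1.77-fold (adjusted p = 0.012). Mean levels in control, *Smad4 (Stella)* and DKO ovaries were 2.48, 3.05 and 3.30 for *Sp5* and -2.09, -1.60 and -1.33 for *Dact2*. For *Kremen1* they were -2.61, -3.07 and -3.57. Between DKO and *Smad4 (Stella)* ovaries only *Dvl2* and *Kremen2* of the 50 were called. *Rspo1*, *Lgr5* and *Rnf43* stood at log2 fold changes of 0.12, 0.11 and -0.18 in the DKO, with adjusted p of 0.59, 0.53 and 0.35. In *Smad4 (Stella)* against control ovaries 0 of 50 were called by limma, with 5 at an unadjusted p under 0.05, beside 19.7% of all genes, and 0 by the adjusted test of the methods.

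Set directly against control testes, 9 members were called higher and 8 lower in DKO ovaries. *Axin2*, *Lef1*, *Wnt2b*, *Wnt9a* and *Wnt10a* were 3.65-fold, 3.02-fold, 2.72-fold, 3.71-fold and 4.74-fold higher in the DKO, and *Fzd10* and *Fzd6* 5.20-fold and 1.87-fold, where the *Fzd6* value had an adjusted p of 0.193 with the slide as a block. The size for *Fzd10* depended on the probe, at 10.7-fold from 129108855 and 2.52-fold from 129109798, both called. *Wnt5a*, *Fzd2* and *Dkk1* were 2.57-fold, 1.77-fold and 3.75-fold lower. *Sfrp4*, well above background on 2 of 3 DKO arrays, was at least 59.7-fold lower by the rule given above and had the largest log2 fold change of the 17 (adjusted p = 0.0012). *Wnt3*, *Lrp6*, *Tcf7* and *Dkk3*, which were called in the DKO against control ovaries, did not pass the test between DKO ovaries and testes, with log2 differences of -0.20, 0.13, 0.22 and -0.46. The intervals were -1.08 to 0.69, -0.20 to 0.47 and -0.20 to 0.63 for the first 3 and -0.90 to -0.02 for *Dkk3* (adjusted p = 0.092), whose arrays did not overlap. For *Lrp6* 1 probe was called, as given above. Of the 50 other genes, 11 were higher and 8 lower in the DKO than in testes, or 38.0% beside 25.8% of all genes, and *Sp5* was 16.0-fold and *Lgr5* 8.16-fold higher. Surface epithelium markers summed to 27.4 to 40.8 in DKO ovaries and to 13.0 to 14.2 in testes. Only the endothelial, erythroid and skeletal muscle lists overlapped between these groups, and the part of the other cell types was not tested.

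Over the 5 comparisons 22 of the 36 tested members, or 61.1%, were called at least once and 14 never, and 43.7% of all genes were called at least once. The 8 members that were not well above background on every array of any group, and so were not tested, were *Wnt1*, *Wnt3a*, *Wnt7a*, *Wnt8a*, *Wnt8b*, *Wnt9b*, *Wnt10b* and *Dkk4*. *Wnt1*, *Wnt8a*, *Wnt8b* and *Wnt10b* were above background on 0 of the 12 arrays. Further members were not called in a mutant but had arrays that did not overlap those of control ovaries and an unadjusted p under 0.05. *Fzd3* was -0.23 ± 0.09 (SE) and *Wnt7b* 0.38 ± 0.15 in DKO against control ovaries on the log2 scale, with adjusted p of 0.10 and 0.097.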

How the data were processed

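RNA of 12 E14.5 gonad samples, each labelled with Cy3, was hybridised by the authors to Agilent whole mouse genome arrays, 1 array per sample. The deposited intensity files are output of Feature Extraction 11.0.1.1, whose processed signal is corrected for background within each array, and probe positions in them refer to mm9. A further deposited set of intensities for the whole series held the same values rounded, with no scaling between arrays. Groups and replicates came from the sample titles. Nothing in the sources used here says that the samples of a group came from separate litters, so p-values measure the spread between these samples.

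From the deposited intensity, log2 minus the 75th percentile over the spots that are not controls was taken per array. Outlier spots were left out and spots of a probe averaged. Probes entered the fit if all 3 arrays of any group flagged them as well above background (27309 of 41174 probes, 18665 genes, and 53 of the 62 probes of the members), and those of a gene were averaged. Gene names were matched to RefSeq for 31791 probes, and old names among them were updated. No probe was saturated. With 3 arrays per group their number limits the precision.

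Groups were compared with limma 3.58.1 (R 4.3.3, data.table, version 1.17.8) in 1 model over the 12 arrays with Benjamini-Hochberg adjustment over all genes, tested on simulated data. Intervals are 95% from the same fit. Alternatives were the deposited values without scaling, quantile normalization, normexp with an offset of 50, the brightest probe, no filter, probes detected in every group, a 2-fold threshold, a slide block, a replicate block, the methods' t-test, a fit of the compared groups alone, each array left out, within-slide differences and, chosen after seeing the data, each probe fitted singly. Slide 1 held the testes and control ovary 1, slide 2 control ovaries 2 and 3 with DKO ovaries 1 and 2, and slide 3 the *Smad4 (Stella)* ovaries with DKO ovary 3. Replicate numbers did not pair the samples.

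Named members were all those called in at least 1 of 5 comparisons, *Axin2*, *Lef1*, *Tcf7* and *Ctnnb1*, and members with an unadjusted p under 0.05 and no overlap of arrays between a mutant and control ovaries. The members and lists were chosen with earlier results of these data known. 1 Wnt ligand is not reported here. Promoters are RefSeq sequences on GRCm38.p6, a build other than that of the probes. Tables were made with Python, pandas, numpy and scipy and figures with matplotlib.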

Additional observations from a re-analysis of the deposited data

Results flagged for a closer look

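For 5 members the difference from the shared control ovaries was not the same in DKO as in *Smad4 (Stella)* ovaries, by the direct test of these 2 groups. Both carry the *Smad4* deletion, and by their labels they differ in *Stra8*, which is -/- in the DKO and +/- in the other. The difference was 0.73 on the log2 scale for *Axin2*, 1.29 for *Fzd9*, 1.48 for *Wnt3* and 0.74 for *Wnt16*, all higher in the DKO, and -0.67 for *Lrp6*. On the slide that held DKO ovary 3 with all 3 *Smad4 (Stella)* ovaries, the differences were 0.63, 0.99, 1.13, 0.57 and -0.83 in the same order, each against 1 DKO array. With the slide as a block 1 of the 5 stayed called, *Axin2* with an adjusted p of 0.033. None of the 5 calls was kept in every one of the 12 fits that each left out 1 array, and leaving out *Smad4 (Stella)* ovary 2 ended all 5. Groups of 3 arrays are too small to flag a single array within its group.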

How the results depend on the processing

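Against the 14 members called between the sexes, each alternative gave 11 to 17. For DKO against control ovaries (9 members) the deposited table without scaling gave 2, normexp 3, no filter 5, a fit of those groups alone 3, the methods' t-test 1 after adjustment and the 2-fold threshold 4, and leaving out 1 array gave 4 to 9, the 4 without DKO ovary 2. For DKO against *Smad4 (Stella)* ovaries (5 members) quantile normalization gave 3, the deposited values 0, normexp 1, no filter 3, the slide block 1, the methods' t-test 0 after adjustment and 8 before, the 2-fold threshold 2, and leaving out 1 array 0 to 6. Leaving out DKO ovaries 1 and 2 in turn gave 1 and 3, and leaving out *Smad4 (Stella)* ovaries 2 and 3 in turn gave 0 and 1. For *Smad4 (Stella)* against control ovaries (0 members) probes detected in every group gave 1, which was *Axin2*, the unadjusted t-test 6, and leaving out 1 array 0 to 1, the 1 being *Axin2* without control ovary 1. For DKO ovaries against testes (17 members) the deposited table gave 10, normexp 8 and the 2-fold threshold 10. The other pathway genes gave, between the sexes, 12 of 21 under normexp. For DKO against control ovaries (5 genes) the deposited table gave 1, normexp 2, the t-test 2 after and 9 before adjustment, the 2-fold threshold 1, and leaving out 1 array 4 to 9, the 9 without DKO ovary 1. For DKO against *Smad4 (Stella)* ovaries (2 genes) the deposited table gave 1, normexp 0, the slide block 1, the t-test 0 after and 6 before adjustment, the 2-fold threshold 1, and leaving out 1 array 1 to 3, the 1 without *Smad4 (Stella)* ovary 2. For *Smad4 (Stella)* against control ovaries the unadjusted t-test gave 5, and for DKO ovaries against testes (19 genes) the deposited table gave 12, normexp 8 and the 2-fold threshold 12. The causes were not tested.

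The replicate number as a block gave 14, 0, 6, 4 and 16 called members in testes, *Smad4 (Stella)* and DKO ovaries against control ovaries and in DKO ovaries against *Smad4 (Stella)* ovaries and against testes. Same-numbered arrays of different groups had deviations correlated from -0.18 to 0.15, and 5 of 12 arrays correlated best with their own number. Without scaling the median of all genes moved to 0.40 for *Smad4 (Stella)* against control ovaries and 0.19 for the DKO, and normexp moved the latter to 0.26. Of the single-member values, *Fzd8* between DKO ovaries and testes alone turned direction, to 0.11 under normexp. All 29 within-slide differences kept the direction of the 12-array fit, but they reuse its arrays, for members already called and for *Lef1*. Of them, 14 between the sexes rest on 1 control ovary, and 5 for DKO against *Smad4 (Stella)* ovaries on 1 DKO array. DKO ovaries and testes shared no slide, nor did *Smad4 (Stella)* and control ovaries. Calls kept whichever array was left out numbered 13 of 14 between the sexes, 4 of 9 for DKO against control ovaries, 0 of 5 against *Smad4 (Stella)* ovaries and 13 of 17 against testes. *Wnt16*, *Sfrp4*, *Sfrp5*, the 8 untested members and single probes of *Wnt3*, *Fzd5*, *Fzd7* and *Fzd8* lay close to background in some groups. Differences are least certain there.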

Other observations

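The antagonists *Dkk2* and *Sfrp2*, chosen after their values were seen, spread widely within groups of ovaries. *Dkk2* was -4.74, -3.48 and -1.99 in control ovaries and -1.10, -4.16 and -4.89 in *Smad4 (Stella)* ovaries, against -3.36, -3.63 and -3.23 in DKO ovaries and -1.54, -1.70 and -1.91 in testes. *Sfrp2* was 0.11, 0.28 and 1.64 in control ovaries and 1.93, 0.55 and 0.61 in *Smad4 (Stella)* ovaries, against 1.53 to 1.87 in DKO ovaries. Control ovary 3 and *Smad4 (Stella)* ovary 1 held the highest level of both genes in their groups. Skeletal muscle markers summed to 13.9 in control ovary 3 and to 0.322 in *Smad4 (Stella)* ovary 1. Whether these levels move together through shared cells was not tested.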
